A study of Mus musculus with 12 samples.

Results

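The genes that remodel and crosslink the extracellular matrix were examined in mouse liver: the matrix metalloproteinases (Mmp), their tissue inhibitors (Timp), the Adamts proteases and the lysyl oxidases (Lox and Loxl). They were chosen by gene symbol alone, as every Mmp, Timp, Adamts, Lox and Loxl1 to Loxl4 gene in the deposited tables. The rule found 51 genes of 41325 listed: 23 Mmp, 4 Timp, 19 Adamts and 5 lysyl oxidase genes. Of these, 41 had enough reads to be tested, and the other 10 are described by their read numbers.

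The livers came from wild-type C57BL/6J mice in 3 groups of 4. In the CDDO-Me group, mice with diet-induced nonalcoholic steatohepatitis (NASH) received CDDO-Me (bardoxolone methyl, a synthetic triterpenoid that activates the transcription factor NRF2) by mouth at 10 mg/kg, and the dosing ran for 8 weeks. In the NASH vehicle group, mice with the same disease received vehicle, and in the control group, mice without it received vehicle. The disease labels read "CDAHFD-treated", the usual name of a choline-deficient, amino acid-defined, high-fat diet, which causes steatosis, inflammation and fibrosis without obesity. The labels give neither the diet of the controls nor the age or sex of the animals, so diet and disease cannot be told apart, and liver pieces hold all hepatic cell types together. CDDO-Me livers were compared with NASH vehicle livers, and both with control livers. These comparisons share samples, and their values stand side by side without a test of likeness.

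The matrix metalloproteinases are zinc endopeptidases that cut collagens, elastin, gelatin and many cell surface proteins. Most are secreted as inactive precursors, some are anchored in the cell membrane, and the Timp proteins block the active enzymes. Adamts proteases trim procollagen and cut proteoglycans, and lysyl oxidases oxidise lysines in collagen and elastin so that the fibres become crosslinked. In the fibrotic liver, stellate cells, portal fibroblasts and macrophages are well-known sources of these RNAs.

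Each library held between 28161057 and 33852338 reads assigned to genes. Levels are given as CPM, read counts scaled to a common library size with the trimmed mean of M values (TMM). Levels of different genes are compared in TPM, the deposited transcript abundance that also divides by exon length. Sums of marker genes, and Mmp12 relative to such sums, are given in CPM, which are not divided by exon length. Fold changes are edgeR estimates on the log2 scale with a standard error (SE). Every adjusted p comes from the quasi-likelihood test of edgeR, adjusted by Benjamini and Hochberg's method over the 16456 genes tested, and a gene was called at an adjusted p under 0.05. Nothing in the labels says how the replicates were raised or prepared, so p-values measure only the spread between these samples. The scaling matters here: library totals alone would set the median log2 fold change over all tested genes at 0.62 in NASH vehicle against control livers, and TPM at 0.51, where TMM set it at -0.01. In CDDO-Me against NASH vehicle livers the medians were -0.16, -0.16 and -0.01. The tissue label held in all groups, since 8 hepatocyte markers summed to between 34213 and 51984 CPM in CDDO-Me livers, 33741 and 54998 CPM in NASH vehicle livers and 84791 and 102018 CPM in control livers.

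Some libraries stood apart from their groups. In control 3, 8 smooth muscle markers summed to 480.4 CPM, while the other control libraries had 22.8 to 32.3 CPM, and 8 cholangiocyte markers summed to 362 CPM, while the others had 45.4 to 83.3 CPM. In CDDO-Me 4, the smooth muscle markers summed to 192 CPM, and to 38.0 to 79.1 CPM in the rest of its group. In NASH vehicle 1, 8 markers of portal fibroblasts and mesothelium summed to 49.2 CPM, and to 129.5 to 142.9 CPM in the rest of its group. Those 8 include the elastin gene Eln, described with the matrix genes below. In NASH vehicle against control and CDDO-Me against NASH vehicle livers, leaving out 1 library sometimes ended a call or moved a called fold change by over 1.5 times. The value without that library is then given. In CDDO-Me against control livers this is given for lost calls only.

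Summed over each family, transcript levels were far higher in both NASH groups than in control livers, and lower in most CDDO-Me livers than in most NASH vehicle livers. The Mmp genes summed to 279 ± 117 TPM in CDDO-Me livers, 463 ± 126 TPM in NASH vehicle livers and 96.0 ± 19.97 TPM in control livers (mean ± SD, n = 4 each). The Timp genes summed to 80.7 ± 38.2 TPM in CDDO-Me livers, 168 ± 53 TPM in NASH vehicle livers and 14.7 ± 4.3 TPM in control livers. The Adamts genes summed to 49.6 ± 17.4 TPM in CDDO-Me livers, 80.9 ± 19.96 TPM in NASH vehicle livers and 14.3 ± 1.7 TPM in control livers. The lysyl oxidases summed to 32.6 ± 15.6 TPM in CDDO-Me livers, 65.1 ± 18.9 TPM in NASH vehicle livers and 6.61 ± 1.31 TPM in control livers. CDDO-Me 4 and NASH vehicle 1 overlapped in all 4 families: the Timp sum, for example, was 131.8 TPM in CDDO-Me 4 and 89.8 TPM in NASH vehicle 1. CDDO-Me 1 also lay slightly above NASH vehicle 1 for Mmp (285.1 against 276.1 TPM) and Adamts (57.1 against 55.3 TPM). The balance of inhibitor to protease RNA is described by the ratio of Timp to Mmp TPM, which was 0.284 ± 0.024 in CDDO-Me livers, 0.359 ± 0.042 in NASH vehicle livers and 0.153 ± 0.025 in control livers. The 4 CDDO-Me ratios, 0.254 to 0.309, all lay under the 4 NASH vehicle ratios of 0.325 to 0.411. That separation was narrow, and it was not kept without Mmp12. No other member was left out of the sum in turn, so whether it rests on Mmp12 in particular was not tested. With Mmp12 left out of the Mmp sum, a setting added after the values were seen, the ratio was 0.388 to 0.633 in CDDO-Me livers, 0.444 to 0.640 in NASH vehicle livers and 0.116 to 0.175 in control livers. The CDDO-Me and NASH vehicle ranges then overlapped. The TPM sums carry the TPM shift between groups given above, and in whole liver fewer cells of a type and less RNA per cell cannot be told apart.

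**Figure D1:**
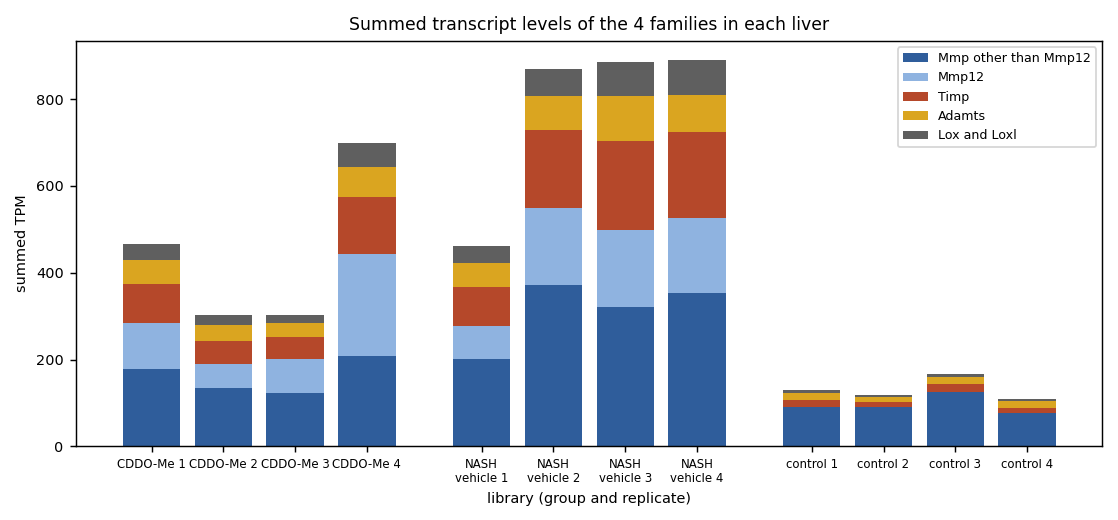
Bars show the summed TPM of 4 gene families in each of the 12 liver libraries, with Mmp12 drawn apart from the other Mmp genes; the y axis is TPM and starts at 0. The 4 control livers are lowest, NASH vehicle 2, 3 and 4 are highest, and CDDO-Me 4 and NASH vehicle 1 overlap the other group of NASH livers. CDDO-Me 1 lies slightly above NASH vehicle 1 for Mmp and Adamts.

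The ranking of the members by level changed with the disease. In CDDO-Me livers the highest were Mmp12 (118 ± 80 TPM), Timp2 (48.3 ± 22.8 TPM), Mmp19 (44.3 ± 3.6 TPM) and Mmp15 (44.0 ± 9.5 TPM). In NASH vehicle livers they were Mmp12 (150.7 ± 51.3 TPM), Timp2 (101.5 ± 31.5 TPM), Mmp15 (68.2 ± 6.9 TPM) and Mmp2 (66.4 ± 23.3 TPM). In control livers they were Mmp19 (41.5 ± 6.4 TPM), Mmp15 (28.7 ± 5.4 TPM), Mmp14 (13.3 ± 3.0 TPM) and Timp2 (10.1 ± 2.9 TPM). Timp2, Mmp19 and Mmp15 in CDDO-Me livers, and Mmp15 and Mmp2 in NASH vehicle livers, differed from their neighbour in the order by less than the larger of the SDs. Mmp12 exceeded Timp2 by less than its own SD in both NASH groups, and Timp2 exceeded Mmp15 by more than either SD in NASH vehicle livers. In control livers Mmp19, Mmp15 and Mmp14 lie further apart than their SDs. Mmp12 made up 39.5% ± 9.9 of Mmp TPM in CDDO-Me livers, 31.9% ± 3.8 in NASH vehicle livers and 0.0613% ± 0.0166 in control livers.

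Most of the family rose in NASH. In NASH vehicle against control livers, 32 of the 41 tested members were higher and 2, Mmp19 and Loxl4, were lower, although neither was called lower on log2(TPM + 1). That is 82.9% called, where 59.7% of all tested genes were; 78.0% were higher, where 29.6% of all tested genes were, and 4.88% lower, where 30.0% were. The median log2 fold change of the members was 2.48, against -0.01 over all tested genes. The groups did not overlap for 34 members, 33 of them higher (54.4% of all tested genes did not overlap, 27.0% higher and 27.4% lower). By family, 14 of 17 Mmp, 3 of 3 Timp, 11 of 16 Adamts and 4 of 5 lysyl oxidase genes were higher. The 7 members not called were Mmp3, Mmp7, Adamts3, Adamts7, Adamts8, Adamts13 and Adamts17. Leaving out each of the 12 libraries in turn kept 31 of the 32 rises in every fit; the exception was Mmp17, which lost its call without control 3, control 4, NASH vehicle 2 or NASH vehicle 3 (adjusted p up to 0.0873). Mmp17 also lost its call with no filter on low counts (adjusted p = 0.0617).

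A smaller set of members was lower with CDDO-Me. In CDDO-Me against NASH vehicle livers, 8 of the 41 were lower (Mmp2, Mmp14, Mmp15, Timp2, Adamts5, Adamts14, Loxl1 and Loxl4) and Mmp19 was higher, the last not under library totals alone or on log2(TPM + 1). That is 21.95% called, where 16.6% of all tested genes were; 19.5% were lower, where 7.24% of all tested genes were lower, and 2.44% higher, where 9.39% were. The median log2 fold change of the members was -0.71, against -0.01 over all tested genes, and 22 members, or 53.7%, had an unadjusted p under 0.05, where 30.6% of all tested genes did. Libraries of the 2 groups did not overlap for 8 members, or 19.5%, where 21.6% of all tested genes did not overlap; 7 of the 8 were lower and Mmp19 higher (10.2% and 11.4% of all tested genes). The count of 8 lower members depends on single libraries: it was 14 without CDDO-Me 4, 13 without control 3, 12 without NASH vehicle 1, 3 without NASH vehicle 4 or CDDO-Me 3, 4 without NASH vehicle 2 or CDDO-Me 2, and 5 without NASH vehicle 3. The count over all tested genes moved in the same directions, from 1191 lower with all libraries. It was 1453 without CDDO-Me 4, 1498 without control 3 and 1305 without NASH vehicle 1. It was 639 without NASH vehicle 4, 617 without CDDO-Me 3, 767 without NASH vehicle 2, 658 without CDDO-Me 2 and 740 without NASH vehicle 3. With control 3 and CDDO-Me 4 both left out, 22 members were lower, and 2004 of all 16591 genes then tested. DESeq2 called 16 members lower, the 8 and Mmp23, Mmp24, Timp1, Adamts2, Adamts4, Adamts9, Adamts12 and Loxl2. It called 1830 of all 17138 genes it tested lower. Mmp2, Mmp14 and Loxl4 were called lower in all 12 fits that leave out a library.

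**Figure D2:**
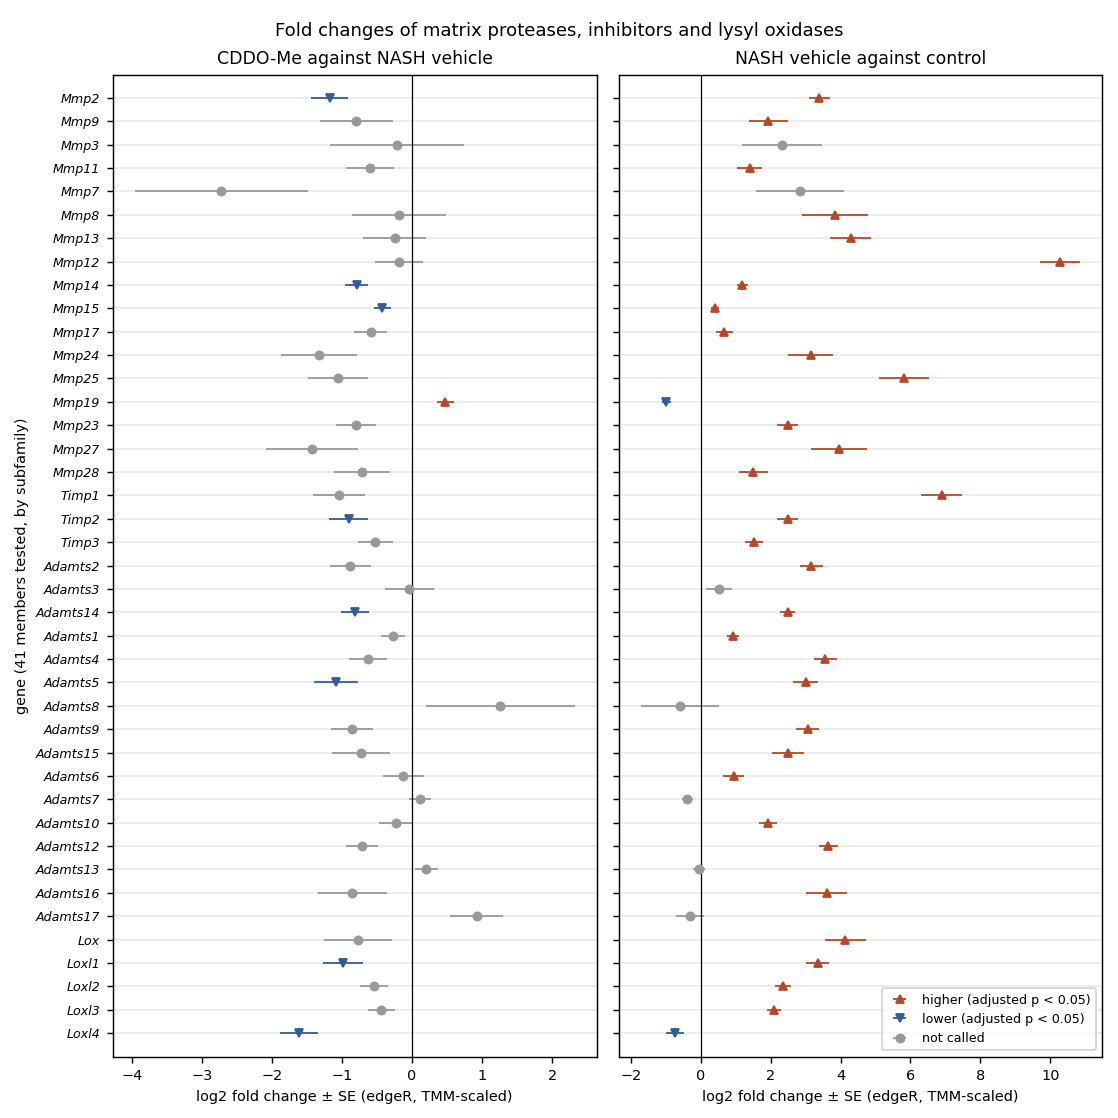
Points show the log2 fold change of each of the 41 tested members with its SE as a bar, in CDDO-Me against NASH vehicle livers (left) and NASH vehicle against control livers (right); triangles mark an adjusted p under 0.05 and grey circles the rest. Most points lie left of 0 in the left panel and right of 0 in the right panel, with Mmp19 the 1 triangle on the opposite side in both and Loxl4 left of 0 in both under TMM scaling.

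The gelatinases, which degrade denatured and basement membrane collagen, were both higher in NASH. Mmp2 (ENSMUSG00000031740, chr8:92827291-92853420, plus strand) encodes gelatinase A, made largely by mesenchymal cells, and had 35.8, 20.2, 27.1 and 45.2 CPM in CDDO-Me livers, 39.4, 82.0, 80.4 and 88.7 CPM in NASH vehicle livers and 7.53, 6.13, 6.96 and 7.07 CPM in control livers. All CDDO-Me livers but CDDO-Me 4 lay under the lowest NASH vehicle liver, and every control liver lay under both. The log2 fold change of Mmp2 was -1.18 ± 0.27 (adjusted p = 0.0112) in CDDO-Me against NASH vehicle livers and 3.39 ± 0.30 (adjusted p = 1.95e-06) in NASH vehicle against control livers. Mmp9, which encodes gelatinase B of leukocytes, had 0.479, 1.05, 0.949 and 1.12 CPM in CDDO-Me livers, 1.13, 2.14, 1.03 and 1.94 CPM in NASH vehicle livers and 0.230, 0.277, 0.999 and 0.0894 CPM in control livers. It was higher in NASH vehicle than in control livers (1.93 ± 0.56, adjusted p = 0.00914), while control 3, with 27 of the 41 control reads, alone among the controls reached the CDDO-Me range. Without control 3 that log2 fold change was 2.94 (adjusted p = 0.000205). In CDDO-Me against NASH vehicle livers Mmp9 was not called (-0.80 ± 0.52, adjusted p = 0.333).

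A cluster of 10 Mmp genes on chromosome 9, from Mmp13 to Mmp7, spans 427072 bases of GRCm38 (chr9:7272514-7699585) and includes Mmp12, the tested member with the largest log2 fold change in NASH vehicle against control livers. Mmp12 (ENSMUSG00000049723, chr9:7344381-7369499, plus strand) encodes macrophage elastase and had 271, 165, 246 and 560.0 CPM in CDDO-Me livers, 193, 441, 374 and 405 CPM in NASH vehicle livers and 0.230, 0.184, 0.259 and 0.447 CPM in control livers. All 8 NASH livers lay far above all controls, and CDDO-Me 4 was the highest liver of all. Mmp12 rose in NASH vehicle against control livers (10.29 ± 0.57, adjusted p = 8.1e-08) and was not called in CDDO-Me against NASH vehicle livers (-0.19 ± 0.34, adjusted p = 0.759, 95% interval -0.95 to 0.58). Mmp13, the main interstitial collagenase of mice, had 2.55, 3.86, 2.19 and 1.40 CPM in CDDO-Me livers, 2.77, 3.13, 2.82 and 3.16 CPM in NASH vehicle livers and 0.0768, 0.369, 0 and 0.179 CPM in control livers. The CDDO-Me and NASH vehicle ranges overlapped and both lay above every control, with fold changes of -0.25 ± 0.44 (adjusted p = 0.750) between CDDO-Me and NASH vehicle livers and 4.29 ± 0.58 (adjusted p = 2.99e-05) between NASH vehicle and control livers (5.13 without control 2). Mmp27 had 0.718, 1.19, 0.474 and 0.918 CPM in CDDO-Me livers, 4.17, 1.18, 1.72 and 1.86 CPM in NASH vehicle livers and 0, 0.0922, 0.444 and 0 CPM in control livers. NASH vehicle 1, low in many members, was the highest liver for Mmp27. The gene was higher in NASH vehicle than in control livers (3.95 ± 0.80, adjusted p = 0.000837) and not called in CDDO-Me against NASH vehicle livers (-1.43 ± 0.66, adjusted p = 0.160). It was called lower with CDDO-Me without control 3 (adjusted p = 0.0442), with limma on log2(TPM + 1) (adjusted p = 0.0116) and with the 8 libraries of the compared groups (adjusted p = 0.0382). Control 3 held 12 of the 14 control reads of Mmp27, and without it the log2 fold change in NASH vehicle against control livers was 6.09 (adjusted p = 3.17e-05). Mmp8, the neutrophil collagenase, stayed at or under 1.00 CPM in every liver, with 70 reads over the CDDO-Me group, 94 over the NASH vehicle group and 4 over the control group, and was higher in NASH vehicle than in control livers (3.84 ± 0.95, adjusted p = 0.00322). All 4 control reads of Mmp8 were in control 3, and without that library Mmp8 was at least 14.8-fold higher in NASH vehicle than in control livers, at a floor of 3 reads over the group. Markers of neutrophils, which carry Mmp8 and Mmp9, summed to 10.5 to 14.7 CPM in CDDO-Me livers, 14.6 to 18.4 CPM in NASH vehicle livers and 0.894 to 1.75 CPM in control livers, with 1 of 6 at 0 in the control group, and their part in these values was not tested.

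Mmp7 (ENSMUSG00000018623, chr9:7692090-7699585, plus strand), which encodes matrilysin, a protease of duct epithelium in the liver, varied widely within groups. It had 2.71, 2.00, 1.68 and 7.34 CPM in CDDO-Me livers, 5.16, 43.9, 12.8 and 29.6 CPM in NASH vehicle livers and 0.154, 0, 12.1 and 0.268 CPM in control livers. Control 3 was far above the other controls, and the NASH vehicle livers were widely spread. With all libraries Mmp7 was called in neither NASH vehicle against control livers (2.84 ± 1.25, adjusted p = 0.0717) nor CDDO-Me against NASH vehicle livers (-2.72 ± 1.23, adjusted p = 0.164). Without control 3 they were 7.29 (adjusted p = 0.000223) and -2.72 (adjusted p = 0.0162) in the same comparisons, and over all alternatives the adjusted p in NASH vehicle against control livers ran between 0.000223 and 0.175. The cholangiocyte marker sums ran between 385 and 872 CPM in CDDO-Me livers, 458 and 1110 CPM in NASH vehicle livers and 45.4 and 362 CPM in control livers, with control 3 the highest control, and their part in the Mmp7 values was not tested. Mmp3, stromelysin 1, passed in NASH vehicle against control livers without control 3 or CDDO-Me 4. It stayed at or under 1.58 CPM, a level CDDO-Me 4 alone reached, and without control 3 its log2 fold change in NASH vehicle against control livers was 4.13 (adjusted p = 0.0260), against 2.32 ± 1.15 (adjusted p = 0.0980) with all libraries.

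Promoter sequence was available from RefSeq (GRCm38.p6) for 33 of the 51 members, including all 10 genes of the chromosome 9 cluster. In the 250 bases upstream of the start, the AP-1 motif TGANTCA, which reads the same on both strands, occurred in 8 of their 36 promoters, each of another member, and in 6.749% of 32851 mouse promoters. All 8 lie in the cluster (Mmp1a, Mmp1b, Mmp3, Mmp7, Mmp10, Mmp12, Mmp13 and Mmp20). Other motifs were searched too. The ETS factor motif AGGAAG occurred in 14 of the 36 promoters and in 29.485% of all mouse promoters. The TATA box TATAAA occurred in 9 of the 36 and in 12.368% of all. Its matches were in Mmp1a, Mmp1b, Mmp3, Mmp7, Mmp10, Mmp13 and Mmp20 of the cluster, and in Mmp21 and Adamts1. Mmp8 and Mmp27, which rose in NASH with Mmp12 and Mmp13, hold no TGANTCA in this window, and Mmp1a, Mmp1b, Mmp10 and Mmp20 hold it but had few reads. The last 120 bases before the start of the 4 that were tested are shown with the AP-1 match in capitals; for Mmp12 it precedes the second of its RefSeq starts.
Mmp12 (chr9:7347254-7347373, GRCm38.p6, plus strand, 5′ to 3′): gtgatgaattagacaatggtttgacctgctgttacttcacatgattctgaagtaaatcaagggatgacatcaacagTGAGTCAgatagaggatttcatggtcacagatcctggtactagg
Mmp13 (chr9:7272394-7272513, GRCm38.p6, plus strand, 5′ to 3′): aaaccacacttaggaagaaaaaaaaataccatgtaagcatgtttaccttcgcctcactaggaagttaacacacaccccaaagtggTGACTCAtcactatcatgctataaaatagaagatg
Mmp7 (chr9:7691970-7692089, GRCm38.p6, plus strand, 5′ to 3′): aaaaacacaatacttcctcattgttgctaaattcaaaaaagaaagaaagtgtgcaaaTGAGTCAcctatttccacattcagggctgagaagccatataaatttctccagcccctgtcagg
Mmp3 (chr9:7445702-7445821, GRCm38.p6, plus strand, 5′ to 3′): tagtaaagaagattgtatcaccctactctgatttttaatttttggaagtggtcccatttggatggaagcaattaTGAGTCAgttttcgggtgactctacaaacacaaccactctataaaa
The match lies 44 to 38 bases upstream of the start in Mmp12, 35 to 29 in Mmp13, 63 to 57 in Mmp7 and 46 to 40 in Mmp3.

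**Figure D3:**
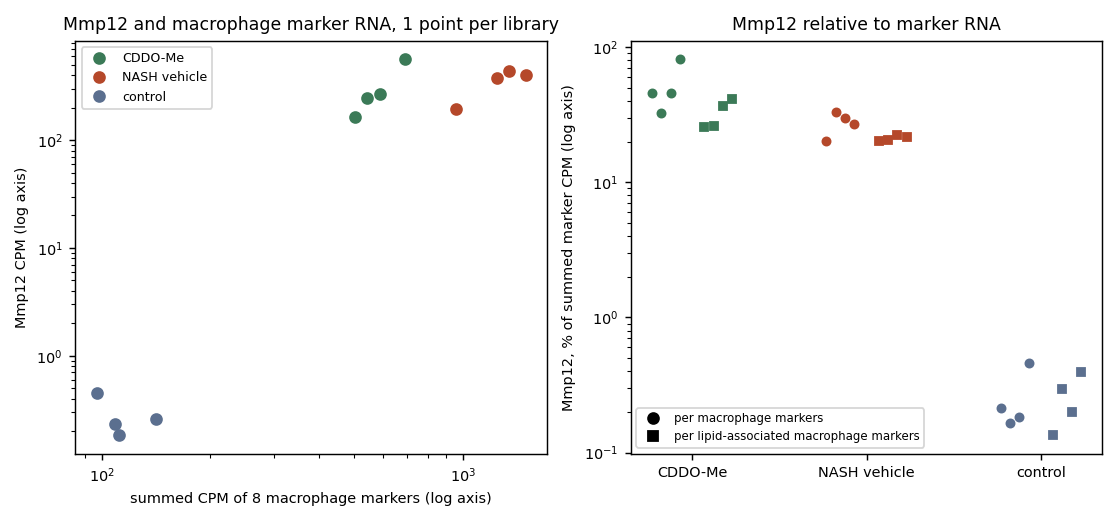
The left panel plots Mmp12 against the summed CPM of 8 macrophage markers, 1 point per library on log axes; the right panel plots Mmp12 as a percentage of the summed CPM of macrophage markers (circles) and lipid-associated macrophage markers (squares) on a log axis. CDDO-Me livers have fewer macrophage marker reads than NASH vehicle livers at overlapping Mmp12 levels, and control livers lie under 0.5% in both ratios.

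The macrophage markers were lower in CDDO-Me livers while the Mmp12 levels of the CDDO-Me and NASH vehicle livers overlapped. Of 8 macrophage markers, 7 were lower in CDDO-Me than in NASH vehicle livers, where 7.24% of all tested genes were. The median log2 fold change of the markers was -1.26. Their summed CPM was 504 to 692 in CDDO-Me livers, 958 to 1492 in NASH vehicle livers and 96.9 to 141 in control livers. Relative to that sum, Mmp12 stood at 46.0%, 32.7%, 45.4% and 80.9% in CDDO-Me livers, 20.1%, 32.8%, 30.1% and 27.2% in NASH vehicle livers and 0.165% to 0.461% in control livers. CDDO-Me 2 and NASH vehicle 2 overlapped and the other CDDO-Me livers lay above all NASH vehicle livers, a difference of 0.84 in the mean log2 ratio (exact two-sided permutation test, p = 0.0571). Relative to 5 markers of lipid-associated macrophages, Mmp12 stood at 25.5% to 41.0% in CDDO-Me livers and 20.3% to 22.5% in NASH vehicle livers, with no overlap (mean log2 difference 0.58, exact two-sided permutation test, p = 0.0286, the smallest that 4 against 4 libraries allow). Of these 5 markers, 2 were called lower in CDDO-Me than in NASH vehicle livers. Their summed CPM overlapped, at 630 to 1365 in CDDO-Me livers and 951 to 2143 in NASH vehicle livers. Spp1, 1 of the 5, is also among the cholangiocyte markers used here. The Mmp12 ratios to both lists were chosen after the Mmp12 values had been seen. With Mmp12 not called and most macrophage markers lower, a higher ratio in CDDO-Me livers followed largely from those values. The p-values of the ratios describe them and are no separate support.

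The membrane-type metalloproteinases included 2 of the 8 reductions. Mmp14 (ENSMUSG00000000957, chr14:54431612-54445364, plus strand) encodes MT1-MMP, a collagenase at the cell surface that also activates the Mmp2 precursor, and had 85.8, 95.5, 71.4 and 102 CPM in CDDO-Me livers, 125, 172, 143 and 174 CPM in NASH vehicle livers and 87.7, 61.1, 65.7 and 54.9 CPM in control livers. All CDDO-Me livers lay under all NASH vehicle livers and overlapped the control range. Its log2 fold change was -0.79 ± 0.16 (adjusted p = 0.00445) in CDDO-Me against NASH vehicle livers, 1.19 ± 0.16 (adjusted p = 2.88e-05) in NASH vehicle against control livers and 0.40 ± 0.16 (adjusted p = 0.0505) in CDDO-Me against control livers. Intron reads made up 36.6% of Mmp14 reads, and total exon reads gave -0.88 (adjusted p = 0.00299) in CDDO-Me against NASH vehicle livers; over all alternatives that adjusted p stayed at or under 0.0186. Mmp15 (ENSMUSG00000031790, chr8:95352268-95375080, plus strand), encoding MT2-MMP, had 95.3, 81.5, 82.6 and 93.8 CPM in CDDO-Me livers, 112, 135, 111 and 116 CPM in NASH vehicle livers and 103, 82.4, 98.3 and 71.5 CPM in control livers. Again no CDDO-Me liver reached the NASH vehicle range, but the change was small, -0.42 ± 0.12 (adjusted p = 0.0254) in CDDO-Me against NASH vehicle livers and 0.42 ± 0.12 (adjusted p = 0.00740) in NASH vehicle against control livers. The Mmp15 reduction lost its call without NASH vehicle 2, NASH vehicle 4, CDDO-Me 2 or CDDO-Me 3 (adjusted p up to 0.0858).

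The other membrane-type genes were lowly expressed. Mmp17, a glycolipid-anchored protease, had 1.76, 1.30, 1.53 and 2.27 CPM in CDDO-Me livers, 1.97, 3.16, 2.87 and 2.36 CPM in NASH vehicle livers and 1.73, 1.71, 1.48 and 1.57 CPM in control livers. In NASH vehicle against control livers it was higher (0.68 ± 0.24, adjusted p = 0.0273) and not called with CDDO-Me (-0.59 ± 0.24, adjusted p = 0.109). Mmp24 and Mmp25 stayed at or under 1.73 CPM and were higher in NASH vehicle than in control livers; Mmp25 had 50 reads over the CDDO-Me group, 120 over the NASH vehicle group and 1 over the control group. Without control 2, which held that read, Mmp25 was at least 20.3-fold higher in NASH vehicle than in control livers at a floor of 3 reads over the group. The log2 fold change of Mmp24 there was 3.14 ± 0.64, adjusted p = 0.000792. It was 4.17 without control 3. For both genes each CDDO-Me liver lay under each NASH vehicle liver, yet neither was called (Mmp24 -1.33 ± 0.54, adjusted p = 0.110, Mmp25 -1.06 ± 0.43, adjusted p = 0.108). Mmp24 overlaps the more abundant BC029722 on the other strand, and the strand of the reads is not given in the sources used here.

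Mmp19 (ENSMUSG00000025355, chr10:128790910-128800824, plus strand) was the 1 member called lower in NASH vehicle than in control livers and higher in CDDO-Me than in NASH vehicle livers. It encodes a metalloproteinase of broad substrate range and was the highest member in control livers by TPM. It had 60.4, 64.1, 63.3 and 49.0 CPM in CDDO-Me livers, 47.0, 38.5, 41.0 and 43.7 CPM in NASH vehicle livers and 78.5, 106, 79.6 and 72.6 CPM in control livers. The 3 groups did not overlap, with CDDO-Me livers between the other groups. Mmp19 was lower in NASH vehicle than in control livers (-0.98 ± 0.12, adjusted p = 1.67e-05) and higher in CDDO-Me than in NASH vehicle livers (0.48 ± 0.12, adjusted p = 0.0183), and lower in CDDO-Me than in control livers (-0.51 ± 0.12, adjusted p = 0.00381; -0.04, adjusted p = 0.749, with library totals alone, and 0.10 on log2(TPM + 1)). Both directions are relative to the TMM scaling: on log2(TPM + 1) the difference between NASH vehicle and control livers was -0.14 (adjusted p = 0.282) and that between CDDO-Me and NASH vehicle livers 0.24 (adjusted p = 0.140), and across all alternatives the adjusted p of the rise with CDDO-Me ran between 0.00492 and 0.140. The rise also lost its call without NASH vehicle 2, NASH vehicle 3, CDDO-Me 2 or CDDO-Me 3. Mmp19 overlaps Tmem198b and Gm47093 on the opposite strand and only 27.9% of its reads were counted as unique, so its level is uncertain; unique reads alone gave 0.52 (adjusted p = 0.0249) for CDDO-Me against NASH vehicle livers.

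Among the remaining Mmp genes, Mmp23 had 7.39, 3.54, 3.98 and 9.18 CPM in CDDO-Me livers, 7.81, 13.1, 9.72 and 11.4 CPM in NASH vehicle livers and 1.77, 1.38, 2.37 and 1.97 CPM in control livers. All NASH vehicle livers lay above all controls (2.48 ± 0.31, adjusted p = 1.5e-05), while CDDO-Me 4 lay among the NASH vehicle livers (-0.80 ± 0.28, adjusted p = 0.0716; called without CDDO-Me 4 or NASH vehicle 1, adjusted p down to 0.0162). Mmp11, stromelysin 3 of fibroblasts, had 2.47, 1.33, 1.57 and 3.76 CPM in CDDO-Me livers, 2.06, 3.52, 3.78 and 4.59 CPM in NASH vehicle livers and 1.31, 0.922, 1.78 and 1.25 CPM in control livers. NASH vehicle livers exceeded control livers (1.40 ± 0.36, adjusted p = 0.00400), the CDDO-Me range overlapped both other groups (-0.60 ± 0.34, adjusted p = 0.259), and Mmp11 overlaps the abundant Chchd10 on the opposite strand. Mmp28 stayed at or under 1.18 CPM and was higher in NASH vehicle than in control livers (1.51 ± 0.43, adjusted p = 0.00765).

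**Figure D4:**
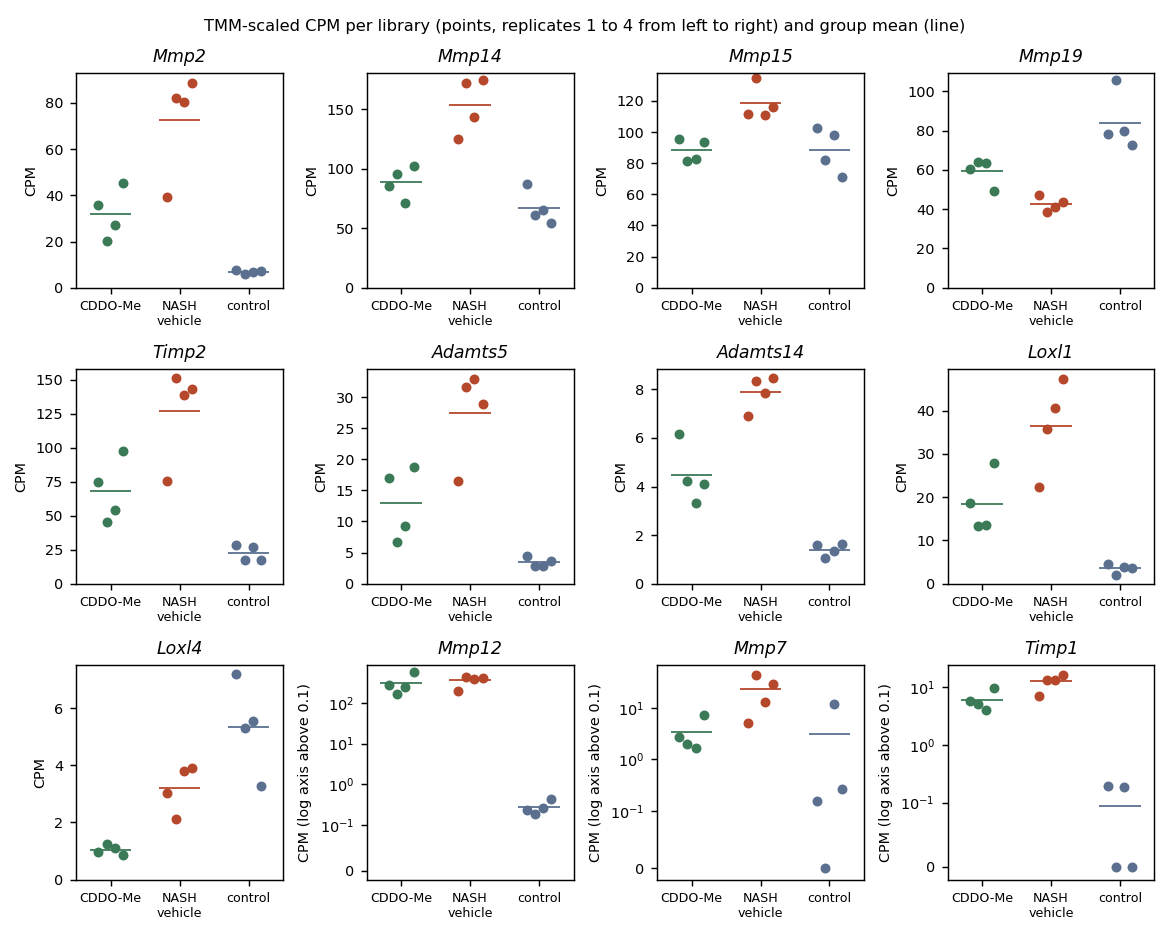
Each panel shows the TMM-scaled CPM of a gene in every library (points) and the group mean (line) for CDDO-Me, NASH vehicle and control livers; the y axes start at 0, and those of Mmp12, Mmp7 and Timp1 are linear up to 0.1 CPM and logarithmic above. CDDO-Me and NASH vehicle points are apart for Mmp14, Mmp15, Mmp19, Adamts14 and Loxl4 and overlap or meet for Mmp2, Timp2, Adamts5, Loxl1, Mmp12, Mmp7 and Timp1.

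The inhibitors rose in NASH, and Timp2 was the 1 that fell past the threshold with CDDO-Me. Timp1 (ENSMUSG00000001131, chrX:20870166-20874735, plus strand), the classic serum and tissue marker of liver fibrosis, had 5.72, 5.02, 3.98 and 9.52 CPM in CDDO-Me livers, 7.10, 13.4, 13.3 and 16.3 CPM in NASH vehicle livers and 0.192, 0, 0.185 and 0 CPM in control livers. Its 1880 reads over the NASH vehicle group against 10 over the control group give a ratio of 123 in NASH vehicle over control, with an interval of 66.7 to 257 that covers counting error only. The edgeR estimate, which includes the spread between livers, was 6.89 ± 0.58, adjusted p = 9.26e-07, with a 95% interval of 5.58 to 8.19 on the log2 scale. In CDDO-Me against NASH vehicle livers Timp1 was not called (-1.04 ± 0.38, adjusted p = 0.0780), with NASH vehicle 1 inside the CDDO-Me range, and was called without NASH vehicle 1, CDDO-Me 4 or control 3 (adjusted p down to 0.0287). Timp1 was also called lower there with DESeq2, with limma on log2(TPM + 1) (adjusted p = 0.0236) and with the 8 libraries of the compared groups. Timp2 (ENSMUSG00000017466, chr11:118301069-118355740, minus strand), which inhibits Mmp2 and also helps Mmp14 to activate its precursor, had 74.7, 45.4, 54.1 and 97.7 CPM in CDDO-Me livers, 75.8, 151, 139 and 143 CPM in NASH vehicle livers and 28.7, 17.4, 27.0 and 17.6 CPM in control livers. NASH vehicle 1 was far under the other NASH vehicle livers and CDDO-Me 4 above it. Timp2 was higher in NASH vehicle than in control livers (2.48 ± 0.29, adjusted p = 2.07e-05) and lower in CDDO-Me than in NASH vehicle livers (-0.90 ± 0.28, adjusted p = 0.0452), a call lost in 7 of the 12 fits that leave out a library (control 4, NASH vehicle 2, 3 or 4, CDDO-Me 1, 2 or 3; adjusted p up to 0.132), with no filter on low counts (adjusted p = 0.123) and with library totals alone (adjusted p = 0.0584).

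Timp3, the inhibitor that binds to the matrix and also blocks Adamts proteases, had 42.3, 32.1, 30.3 and 59.9 CPM in CDDO-Me livers, 38.0, 61.4, 65.0 and 72.3 CPM in NASH vehicle livers and 18.6, 16.7, 28.0 and 19.6 CPM in control livers. Every NASH liver lay above every control (1.51 ± 0.26, adjusted p = 0.000314 in NASH vehicle against control livers), and CDDO-Me and NASH vehicle livers overlapped (-0.52 ± 0.25, adjusted p = 0.179; called without CDDO-Me 4, adjusted p = 0.0394). Timp1, Timp3 and Timp4 each lie inside a synapsin gene on the opposite strand, and 82.9%, 5.79% and 11.1% of their reads were counted as unique. With unique reads alone the log2 fold change of Timp3 in NASH vehicle against control livers was 1.58 (adjusted p = 0.00169). Timp4 was not tested: its 18 reads were all in NASH vehicle livers, which put it at least 3.93-fold higher there than in control livers and at least 5.19-fold lower in CDDO-Me than in NASH vehicle livers, at a floor of 3 reads over a group.

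Mmp15 and Timp2, both called lower with CDDO-Me, hold upstream of their start the core of the antioxidant response element, the site bound by NRF2 with its partner proteins. The core TGACNNNGC, searched on both strands in the 250 bases upstream of the start, occurred in 4 of the 36 promoters (Mmp15, Timp2, Timp4 and Adamts2), and 10.161% of all mouse promoters held it, a share close to that of the members. The 60 bases around the match are shown for the members called lower, with the core, which lies on the other strand in both, in capitals.
Mmp15 (chr8:95352116-95352175, GRCm38.p6, plus strand, 5′ to 3′): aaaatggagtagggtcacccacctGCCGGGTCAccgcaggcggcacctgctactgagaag
Timp2 (chr11:118355532-118355591, GRCm38.p6, minus strand, 5′ to 3′): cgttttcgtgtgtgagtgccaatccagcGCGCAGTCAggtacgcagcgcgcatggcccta
The match lies 156 to 148 bases upstream of the start in Mmp15 and 152 to 144 in Timp2. The other 3 members called lower for which a promoter was available, Mmp14, Adamts14 and Loxl4, hold no such core in this window. Adamts2, which holds it, was not called with CDDO-Me. Whether the core has any part in the Mmp15 and Timp2 values was not tested.

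The procollagen Adamts proteases remove the amino-terminal propeptide of fibrillar collagens. Adamts2 had 41.7, 28.3, 27.6 and 56.8 CPM in CDDO-Me livers, 46.7, 72.5, 83.1 and 82.3 CPM in NASH vehicle livers and 11.2, 4.20, 7.92 and 8.23 CPM in control livers. It was higher in NASH vehicle than in control livers (3.17 ± 0.33, adjusted p = 8.51e-06), and NASH vehicle 1 lay among the CDDO-Me livers (-0.88 ± 0.30, adjusted p = 0.0641; called without control 2, NASH vehicle 1 or CDDO-Me 4, adjusted p down to 0.0219). Adamts14 (ENSMUSG00000059901, chr10:61197112-61273438, minus strand) had 6.17, 4.25, 3.32 and 4.10 CPM in CDDO-Me livers, 6.89, 8.35, 7.83 and 8.46 CPM in NASH vehicle livers and 1.57, 1.06, 1.33 and 1.65 CPM in control livers. All CDDO-Me livers lay under all NASH vehicle livers and above all controls, with fold changes of -0.82 ± 0.20 (adjusted p = 0.0149) in CDDO-Me against NASH vehicle livers and 2.48 ± 0.22 (adjusted p = 8.57e-07) in NASH vehicle against control livers. The call with CDDO-Me was lost without NASH vehicle 4 or CDDO-Me 3 (adjusted p up to 0.0528). Adamts3 stayed at or under 0.889 CPM in every liver, had 60.2% intron reads and was called in neither comparison.

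The Adamts proteases of proteoglycans, which cut versican and aggrecan, comprised 7 members, of which 5 rose in NASH. Adamts8 was not called and Adamts20 had too few reads to be tested. Adamts1 had 13.99, 19.5, 11.5 and 18.9 CPM in CDDO-Me livers, 17.9, 22.1, 20.5 and 16.4 CPM in NASH vehicle livers and 9.91, 12.5, 9.55 and 8.90 CPM in control livers. In NASH vehicle against control livers it was higher (0.91 ± 0.17, adjusted p = 0.000450), and the CDDO-Me and NASH vehicle livers overlapped (-0.27 ± 0.17, adjusted p = 0.308). Adamts4, aggrecanase 1, had 2.26, 2.81, 2.04 and 2.49 CPM in CDDO-Me livers, 4.02, 3.85, 3.46 and 3.61 CPM in NASH vehicle livers and 0.461, 0.323, 0.111 and 0.358 CPM in control livers. Each CDDO-Me liver lay under each NASH vehicle liver, but the gene was not called (-0.64 ± 0.27, adjusted p = 0.128). It was called lower without control 3 (adjusted p = 0.0350), with DESeq2, with limma on log2(TPM + 1) (adjusted p = 0.00137) and with the 8 libraries of the compared groups. In NASH vehicle against control livers it was higher (3.57 ± 0.32, adjusted p = 1.04e-06).

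Adamts5 (ENSMUSG00000022894, chr16:85856173-85901828, minus strand), aggrecanase 2, had 17.02, 6.67, 9.30 and 18.8 CPM in CDDO-Me livers, 16.5, 31.5, 33.0 and 28.9 CPM in NASH vehicle livers and 4.42, 2.77, 2.81 and 3.71 CPM in control livers. NASH vehicle 1 lay within the CDDO-Me range and the other NASH vehicle livers above it. Adamts5 was higher in NASH vehicle than in control livers (3.00 ± 0.35, adjusted p = 1.7e-05) and lower in CDDO-Me than in NASH vehicle livers (-1.08 ± 0.32, adjusted p = 0.0364), a call lost without NASH vehicle 2, 3 or 4 or CDDO-Me 2 or 3 (adjusted p up to 0.110) and with no filter on low counts (adjusted p = 0.0961). Adamts9 had 17.4, 6.56, 8.06 and 12.7 CPM in CDDO-Me livers, 17.2, 19.6, 21.7 and 22.6 CPM in NASH vehicle livers and 2.80, 1.38, 1.96 and 3.58 CPM in control livers. CDDO-Me 1 was within the NASH vehicle range. Adamts9 was called in NASH vehicle against control livers (3.06 ± 0.33, adjusted p = 7.68e-06). It was not called with CDDO-Me (-0.85 ± 0.30, adjusted p = 0.0687) with all libraries. It was called lower there without CDDO-Me 1 (adjusted p = 0.0188), with DESeq2 (adjusted p = 0.0169), with limma on log2(TPM + 1) (adjusted p = 0.0162) and with the 8 libraries of the compared groups (adjusted p = 0.0416). Adamts15 had 4.26, 3.05, 3.68 and 6.22 CPM in CDDO-Me livers, 4.62, 8.13, 6.92 and 8.80 CPM in NASH vehicle livers and 2.61, 1.20, 0.814 and 0.358 CPM in control livers. It was higher in NASH vehicle than in control livers (2.50 ± 0.45, adjusted p = 0.000390; 3.17 without control 1) and was not called with CDDO-Me (-0.72 ± 0.42, adjusted p = 0.264). Adamts8 had at most 1.03 CPM, in CDDO-Me 4, and 46.8% unique reads, and was not called.

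Of the 7 other Adamts genes tested, 4 were higher in NASH vehicle than in control livers. Adamts10, a binding partner of fibrillin, had 30.8, 19.1, 21.3 and 34.1 CPM in CDDO-Me livers, 20.1, 30.6, 40.7 and 31.9 CPM in NASH vehicle livers and 10.3, 5.53, 7.47 and 9.21 CPM in control livers. NASH vehicle 1 was the lowest NASH vehicle liver and lay among the CDDO-Me livers, with fold changes of -0.23 ± 0.24 (adjusted p = 0.576) with CDDO-Me and 1.92 ± 0.26 (adjusted p = 4.76e-05) in NASH vehicle against control livers. Adamts12 had 3.32, 3.05, 3.39 and 5.19 CPM in CDDO-Me livers, 4.71, 5.80, 7.27 and 6.73 CPM in NASH vehicle livers and 0.653, 0.461, 0.333 and 0.492 CPM in control livers. All NASH vehicle livers but NASH vehicle 1 lay above all CDDO-Me livers, and the adjusted p with CDDO-Me missed the threshold narrowly (-0.71 ± 0.23, adjusted p = 0.0502), while in NASH vehicle against control livers Adamts12 was higher (3.65 ± 0.27, adjusted p = 2.38e-07). The call was made without control 1, control 3, NASH vehicle 1 or CDDO-Me 4 (adjusted p down to 0.0148). It was also made with DESeq2, DESeq2 size factors in edgeR, library totals alone and limma on log2(TPM + 1). The 8 libraries of the compared groups, unique reads and a filter of at least 50 reads in 4 libraries made it too. Over all alternatives the adjusted p of Adamts12 ran between 0.00644 and 0.154. Adamts16 and Adamts6 were also higher in NASH vehicle than in control livers (Adamts16 3.61 ± 0.59, adjusted p = 0.000155, and 4.30 without control 4; Adamts6 0.94 ± 0.31, adjusted p = 0.0170) and not called with CDDO-Me. Adamts13, which cuts von Willebrand factor and is made by stellate cells, had 8.03, 6.98, 9.81 and 7.60 CPM in CDDO-Me livers, 7.93, 6.68, 7.56 and 5.97 CPM in NASH vehicle livers and 8.91, 7.66, 5.37 and 7.47 CPM in control livers. Its groups overlapped throughout, and it was called in neither comparison (0.20 ± 0.17, adjusted p = 0.454 with CDDO-Me, -0.06 ± 0.17, adjusted p = 0.766 in NASH vehicle against control livers), although log2(TPM + 1) gave 0.50 (adjusted p = 0.00193) in NASH vehicle against control livers. Adamts7 and Adamts17 were not called, at 8.94 to 16.9 CPM and 0.247 to 1.04 CPM over all livers; Adamts7 was called lower in NASH vehicle than in control livers without control 2 or control 3 (adjusted p down to 0.0145), and higher on log2(TPM + 1) at 0.35 (adjusted p = 0.0471).

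Of the crosslinking enzymes, Lox and Loxl1 to Loxl3 rose in NASH and Loxl4 did not. Lox had 8.01, 4.67, 3.72 and 13.2 CPM in CDDO-Me livers, 6.59, 14.2, 15.2 and 14.8 CPM in NASH vehicle livers and 0.192, 0.369, 1.55 and 0.715 CPM in control livers. NASH vehicle 1 was under CDDO-Me 1 and CDDO-Me 4, and Lox was higher in NASH vehicle than in control livers (4.14 ± 0.59, adjusted p = 8.95e-05; 4.91 without control 3) and not called with CDDO-Me (-0.77 ± 0.49, adjusted p = 0.314). Loxl1 (ENSMUSG00000032334, chr9:58287738-58313186, minus strand), which crosslinks elastin, had 18.7, 13.4, 13.5 and 27.9 CPM in CDDO-Me livers, 22.4, 35.7, 40.6 and 47.3 CPM in NASH vehicle livers and 4.53, 2.12, 3.92 and 3.71 CPM in control livers. Only CDDO-Me 4 and NASH vehicle 1 crossed. Loxl1 was higher in NASH vehicle than in control livers (3.35 ± 0.32, adjusted p = 3.77e-06) and lower in CDDO-Me than in NASH vehicle livers (-0.99 ± 0.28, adjusted p = 0.0338), a call lost without NASH vehicle 2, 3 or 4 or CDDO-Me 1, 2 or 3 (adjusted p up to 0.105) and with no filter on low counts (adjusted p = 0.0922).

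Loxl2, a lysyl oxidase of fibrillar and basement membrane collagen, had 21.3, 15.5, 14.5 and 27.8 CPM in CDDO-Me livers, 24.7, 29.7, 28.3 and 32.5 CPM in NASH vehicle livers and 6.99, 4.01, 5.07 and 6.39 CPM in control livers. In NASH vehicle against control livers it was higher (2.36 ± 0.22, adjusted p = 1.62e-06), and CDDO-Me 4 lay above NASH vehicle 1 (-0.54 ± 0.20, adjusted p = 0.0864; called without CDDO-Me 4, adjusted p = 0.0118). Loxl3 had 6.54, 4.63, 5.18 and 7.25 CPM in CDDO-Me livers, 6.14, 7.67, 8.59 and 9.60 CPM in NASH vehicle livers and 2.11, 1.98, 1.48 and 1.88 CPM in control livers. NASH vehicle livers exceeded control livers (2.10 ± 0.21, adjusted p = 1.92e-06), and the CDDO-Me and NASH vehicle livers overlapped (-0.44 ± 0.19, adjusted p = 0.138); Loxl3 overlaps the more abundant Htra2 on the opposite strand. Loxl4 (ENSMUSG00000025185, chr19:42593982-42612813, minus strand) had 0.984, 1.26, 1.09 and 0.860 CPM in CDDO-Me livers, 3.04, 2.12, 3.80 and 3.90 CPM in NASH vehicle livers and 7.18, 5.30, 5.55 and 3.26 CPM in control livers. All CDDO-Me livers lay under all NASH vehicle livers and under all controls. Its log2 fold change was -1.61 ± 0.28 (adjusted p = 0.00161) in CDDO-Me against NASH vehicle livers and -2.34 ± 0.28 (adjusted p = 1.7e-05) in CDDO-Me against control livers. In NASH vehicle against control livers it was -0.73 ± 0.26 (adjusted p = 0.0275), a difference that depends on the scaling, since library totals alone gave -0.09 (adjusted p = 0.786) and log2(TPM + 1) gave 0.02 (adjusted p = 0.928); over all alternatives the adjusted p ran between 0.00741 and 0.928. That call was also lost without control 1, NASH vehicle 1 or NASH vehicle 2 (adjusted p up to 0.0995) and with the 8 libraries of the compared groups (adjusted p = 0.0548).

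Most members were still higher in CDDO-Me than in control livers. Of the 41 members, 26 were higher and 2 lower (Mmp19 and Loxl4) in CDDO-Me than in control livers, or 63.4% higher where 26.2% of all tested genes were and 4.88% lower where 23.6% were (49.8% of all tested genes were called), with a median log2 fold change of 1.68 against 0.03 over all tested genes. The groups did not overlap for 25 members, or 61.0%, where 43.7% of all tested genes did not; 23 were higher and 2 lower (22.6% and 21.1% of all tested genes). Of the 8 members called lower with CDDO-Me, 5 were still called higher than control (Mmp2 2.21 ± 0.29, adjusted p = 6.2e-05; Timp2 1.58 ± 0.29, adjusted p = 0.000738; Adamts5 1.92 ± 0.34, adjusted p = 0.000633; Adamts14 1.66 ± 0.22, adjusted p = 3.53e-05; Loxl1 2.36 ± 0.31, adjusted p = 7.31e-05). Mmp14 and Mmp15 were not called against control livers (Mmp14 0.40 ± 0.16, adjusted p = 0.0505; Mmp15 -0.01 ± 0.12, adjusted p = 0.970; Mmp14 was called without control 1, NASH vehicle 1 or CDDO-Me 3, adjusted p down to 0.00849), and on log2(TPM + 1) both were higher in CDDO-Me than in control livers (0.82, adjusted p = 0.00309; 0.59, adjusted p = 0.00597). The log2 fold change in CDDO-Me against control livers was 10.10 ± 0.57 (adjusted p = 1.51e-07) for Mmp12 and 5.84 ± 0.58 (adjusted p = 5.45e-06) for Timp1. Of the 32 members higher in NASH vehicle livers, 4 were called in neither comparison of CDDO-Me livers (Mmp9, Mmp11, Mmp17 and Mmp28). Without control 3, Mmp9, Mmp11 and Mmp28 were called higher in CDDO-Me than in control livers (adjusted p = 0.00319, 0.0382 and 0.0341), as were Mmp3 and Mmp7 (adjusted p = 0.0408 and 0.00856), and Mmp11 was also called without CDDO-Me 2. Of the 26 members higher, 23 kept the call in all 12 fits that leave out a library. The others were Mmp24 (lost without control 1, 2 or 4 or CDDO-Me 1 or 4, adjusted p up to 0.0881, and with total exon reads, adjusted p = 0.117, or on log2(TPM + 1), adjusted p = 0.222), Mmp27 (lost without control 2, adjusted p = 0.0512) and Adamts6 (lost without control 1 or 2, NASH vehicle 2, 3 or 4, or CDDO-Me 1 or 4, adjusted p up to 0.151, with no filter, adjusted p = 0.0618, with the 8 libraries of the compared groups, adjusted p = 0.0796, or with total exon reads, adjusted p = 0.0914).

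Within groups, many members shared their extreme library. CDDO-Me 4 was the highest CDDO-Me liver for 27 of the 41 members (33.4% of all tested genes), and NASH vehicle 1 the lowest NASH vehicle liver for 25 (33.2% of all tested genes). CDDO-Me 2 was the lowest CDDO-Me liver for 20 (25.7% of all tested genes) and CDDO-Me 3 for 15 (27.0%). Stellate cell markers summed to 489, 427, 449.5 and 620.3 CPM in CDDO-Me livers, 484, 754, 619.8 and 679 CPM in NASH vehicle livers and 239 to 263 CPM in control livers. Portal fibroblast and mesothelial markers summed to 55.6, 35.0, 49.4 and 87.8 CPM in CDDO-Me livers, 49.2, 129.5, 131.7 and 142.9 CPM in NASH vehicle livers and 11.9 to 28.7 CPM in control livers. The libraries highest and lowest in these marker sums were CDDO-Me 4 and CDDO-Me 2 in the treated group, and NASH vehicle 1 was lowest in its group. With CDDO-Me, 2 of 8 stellate cell markers and 0 of 8 portal fibroblast and mesothelial markers were called lower by edgeR, with medians of -0.36 and -0.45. Over all tested genes, 7.24% were called lower. No marker of either list was at 0 over a whole group. The elastin gene Eln, a lysyl oxidase substrate, is 1 of the portal fibroblast and mesothelial markers. It made up most of their mean sum in both NASH groups. The part of these cell types in the members' values was not tested.

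The neighbouring matrix pathways gave the following counts. For comparison, 29.6% of all tested genes were higher and 30.0% lower in NASH vehicle than in control livers. In CDDO-Me against NASH vehicle livers, 9.39% were higher and 7.24% lower. Of 17 collagens, 15 were higher and 1 lower in NASH vehicle than in control livers, and 11 were lower in CDDO-Me than in NASH vehicle livers (median log2 fold change -0.99). Col5a1, a chain of fibrillar type V collagen, fell by 0.99 ± 0.15 and Col14a1, which associates with fibrils, by 0.89 ± 0.13 on the log2 scale in CDDO-Me against NASH vehicle livers. Of 15 elastic fibre genes, the substrates and partners of lysyl oxidases, 12 were higher in NASH vehicle livers and 4 were lower with CDDO-Me: Fbn1, Efemp2, Emilin1 and Ltbp2. Eln, elastin itself, averaged 34.0 CPM in CDDO-Me livers, 84.8 CPM in NASH vehicle livers and 4.75 CPM in control livers and was not called with CDDO-Me (-1.32 ± 0.43, adjusted p = 0.0590). The portal fibroblast and mesothelial marker sums, which include Eln, averaged 56.9 CPM in CDDO-Me livers, 113.3 CPM in NASH vehicle livers and 21.6 CPM in control livers. Of 18 collagen-processing and crosslinking enzymes, 8 were higher and 2 lower in NASH vehicle livers and 5 were lower with CDDO-Me, among them the collagen chaperone gene Serpinh1 (-0.86 ± 0.19) and the transglutaminase gene Tgm2 (-0.78 ± 0.12).

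Other proteases and inhibitors showed both directions, as did all tested genes. Of the latter, 29.6% were higher and 30.0% lower in NASH vehicle livers, and 9.39% higher and 7.24% lower with CDDO-Me. Of 28 further matrix proteases, 18 were higher and 9 lower in NASH vehicle than in control livers, and 3 were higher and 11 lower in CDDO-Me than in NASH vehicle livers. Ctsk, which encodes the collagen-cutting cathepsin K, averaged 6.54 CPM in CDDO-Me livers, 22.4 CPM in NASH vehicle livers and 1.54 CPM in control livers, and its log2 fold change with CDDO-Me was -1.77 ± 0.28. Lgmn, legumain of lysosomes, was lower by a log2 fold change of -0.96 ± 0.10, and Htra3, a secreted serine protease, was higher at 0.77 ± 0.21. Bmp1, the procollagen C-proteinase that also activates Lox, was lower in both comparisons (-0.45 ± 0.12 with CDDO-Me, -0.82 ± 0.12 in NASH vehicle against control livers). Of 11 plasminogen system genes, which include activators of Mmp precursors, 6 were higher and 4 lower in NASH vehicle livers and 2 were lower with CDDO-Me. Serpine2, a protease inhibitor, was lower with CDDO-Me at -1.53 ± 0.39, and Plat, tissue plasminogen activator, was not called (-0.87 ± 0.29, adjusted p = 0.0623). Of 18 inhibitors outside the Timp family, 8 were higher and 4 lower in NASH vehicle livers, and 2 were higher and 6 lower with CDDO-Me. Of 9 Adamts substrates and Adamts-like genes, 7 were higher in NASH vehicle livers and 2 lower with CDDO-Me, Vcan and Adamtsl2.

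The 10 members that were not tested had few reads. Mmp10, Mmp1a, Mmp1b, Mmp16, Mmp20, Mmp21, Timp4, Adamts18, Adamts19 and Adamts20 stayed at or under 0.370 CPM in every liver. Mmp16 had 17 reads over the CDDO-Me group, 27 over the NASH vehicle group and 8 over the control group. The 2 mouse genes related to human interstitial collagenase, Mmp1a and Mmp1b, had at most 4 reads in a group. Mmp20 had 2 reads over the CDDO-Me group, 9 over the NASH vehicle group and 10 over the control group, all 10 in control 3. Its ratio in CDDO-Me over control livers was 0.151. The 95% interval of that ratio lay under 1, but it covers counting error only. The Mmp20 ratio also rests on control 3 alone. Apart from Timp4, a difference between groups in these genes was not detectable at this depth.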

How the data were processed

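Liver RNA from 12 mice, 4 per group, was poly(A)-selected and sequenced as paired 75-base reads from NEBNext Ultra II libraries, per the labels' protocols. The authors deposited whole-number read counts per gene, TPM, RPKM and fractions of unique and intron reads for each library, per the file headers, on GRCm38, per the submitters' processing notes. The sources used here name no aligner, counter or strand setting. Total gene reads (exon plus intron) were tested with edgeR 4.0.16 in R 4.3.3: filterByExpr, TMM scaling, 1 mean per group over all 12 libraries and robust quasi-likelihood tests with Benjamini-Hochberg adjustment. Each SE was taken from the log2 fold change and its F statistic (|log2 fold change| / √F), and 95% intervals from the t distribution with 9 residual degrees of freedom. TPM was used as deposited, and the deposited RPKM values were not used. Library depth differed 1.20-fold, which limits precision little beside the spread between livers.

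All 51 members are accounted for; values per library are given for members called in CDDO-Me against NASH vehicle livers and for members with a group mean of at least 1 TPM called in NASH vehicle against control livers, and for others where a result turns on them. Genes of other lists have values at 20 CPM or more in any group, and a few under that were named after their values were seen. The members and lists were chosen with earlier results of these data known. Alternatives were DESeq2 1.42.0, limma 3.58.1 on log2(TPM + 1), other scalings, filters and read classes, a replicate block and leaving out libraries. Replicate numbers did not pair the samples: over 12 same-numbered pairs, the correlation of their deviations lay between -0.22 and 0.19, and 2 pairs passed 0.1.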

Additional observations from a re-analysis of the deposited data

Results flagged for a closer look

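In 7 of 123 gene and group combinations, 1 library lay apart from the other 3 of its group by a Dixon criterion that chance passes in about 1 of 20 groups. NASH vehicle 1 was apart for 3 genes: it was lowest for Mmp2 at 39.4 CPM (others 80.4 to 88.7 CPM), for Timp2 at 75.8 CPM (others 139 to 151 CPM) and for Lox at 6.59 CPM (others 14.2 to 15.2 CPM). CDDO-Me 2 was lowest for Mmp25 at 0.211 CPM (others 0.430 to 0.452 CPM) and for Adamts3 at 0.421 CPM (others 0.798 to 0.889 CPM). Among controls, Mmp8 had reads in control 3 alone (0.148 CPM) and Mmp25 in control 2 alone (0.0461 CPM). With the other control libraries at 0, any read passes the criterion for these genes.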

How the results depend on the processing

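Among values called in at least one of the settings compared, on log2(TPM + 1) with limma, Adamts7 (0.35), Adamts13 (0.50) and Loxl4 (0.023) changed sign in NASH vehicle against control livers, and so did Mmp15 (0.59) and Mmp19 (0.10) in CDDO-Me against control livers. Signs also changed where neither value was called. Adamts7, for example, was at -0.39 in NASH vehicle against control livers and at 0.25 with library totals alone. In CDDO-Me against control livers it was at -0.27, at 0.20 with library totals alone and at 0.26 with limma on TPM. Library totals alone turned Adamts13 to 0.57 in NASH vehicle against control livers and Mmp15 to 0.47 in CDDO-Me against control livers. Unlike the Adamts7 values with library totals, both were called higher in that setting. The 8 members lower in CDDO-Me than in NASH vehicle livers became 16 with DESeq2, 19 with limma on TPM, 5 with no filter, 16 with the 8 libraries of the compared groups and 22 without control 3 and CDDO-Me 4. Over all tested genes, the 1191 lower became 1830, 2607, 967, 1588 and 2004 in the same order of settings. With limma on TPM, Mmp23, Mmp24, Mmp25, Mmp27, Timp1, Adamts2, Adamts4, Adamts9, Adamts12, Adamts15 and Loxl2 were called lower besides the 8 members. With the 8 libraries, Mmp7, Mmp24, Mmp27, Timp1, Adamts2, Adamts4, Adamts9 and Adamts12 were. The 1 higher member became 0 with limma on TPM and with library totals alone. The 2 lower in NASH vehicle than in control livers became 0 with limma on TPM, and 1 with the 8 libraries, with library totals alone and with the replicate block. The 2 lower in CDDO-Me than in control livers became 1 with limma on TPM and with library totals alone. These 2 settings shift all tested genes as well. In NASH vehicle against control livers, 4945 of all tested genes were lower, 873 with limma on TPM and 1326 with library totals alone. The cause of these changes was not tested. Leaving out each library in turn gave 31 to 33 higher and 1 to 3 lower in NASH vehicle against control livers, 0 to 1 higher and 3 to 14 lower in CDDO-Me against NASH vehicle livers, and 23 to 31 higher and 2 lower in CDDO-Me against control livers. The replicate numbers did not pair the samples (0 of 12 libraries correlated best with their own number), and with the replicate block the counts were 31 higher and 1 lower, 1 higher and 7 lower, and 24 higher and 2 lower in the same order of comparisons. The block ended the calls of Mmp15 (adjusted p = 0.0514), Timp2 (adjusted p = 0.0853) and Adamts5 (adjusted p = 0.0506) and called Adamts9 (adjusted p = 0.0284) and Loxl2 (adjusted p = 0.0392) lower in CDDO-Me against NASH vehicle livers. It also ended the calls of Mmp17 and Loxl4 in NASH vehicle against control livers, and of Mmp24 and Adamts6 in CDDO-Me against control livers. It changed no other call among the members.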

Other observations

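The Mmp12 level per macrophage marker was also computed in other ways, all chosen after the values were seen. Here too the direction followed largely from values already known, so the p-values only describe the ratios. From TPM, the mean log2 difference between CDDO-Me and NASH vehicle livers was 0.93 (exact two-sided permutation test, p = 0.0286), and from unique reads 0.86 (exact two-sided permutation test, p = 0.0571). Leaving out each library of the NASH groups in turn gave 0.59 to 1.03 (exact two-sided permutation test, p = 0.0571 to 0.114).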
